A study of Mus musculus with 36 samples.

Results

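These data describe what 3 days of renewed weight bearing did to RNA in the soleus of young mice whose hind limbs had been unloaded for 10 days. The comparison set the 4 young reloading libraries against the 4 young unloading libraries, 8 of the 36 libraries of the series, and libraries were assigned to these groups by the sample labels. All mice were male C57BL/6J, the young ones 6 months old, and each library came from the soleus of 1 mouse. The unloading group had its hind limbs unloaded for 10 days, and the reloading group had the same 10 days followed by 3 days of reloading. Young controls, 9 mice, were kept for 10 days without unloading, and old mice of 22 to 24 months made up 9 control, 6 unloading and 4 reloading libraries. All were harvested after a fast of 4 hours, so both groups compared here were fasted alike, and the reloaded mice were 3 days further on than the unloaded ones.

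The soleus is a postural calf muscle of slow and fast oxidative fibres that bears load whenever a mouse stands. Without load its fibres shrink, protein breakdown through ubiquitin ligases rises, and its fibres shift towards faster myosins. When load returns, fibres that have lost mass are stretched and partly damaged, and regrowth runs together with repair: satellite cells divide, macrophages clear debris, fibroblasts lay down matrix, and the fibres rebuild sarcomeres.

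Counts were summed per gene symbol and are given as CPM, the usual unit of counts scaled to library size, with library totals adjusted by the trimmed mean of M values. The 8 libraries held 32.2 to 35.1 M counts. Of 21156 genes, 15031 passed the filter on low counts and were tested. The 9 markers of skeletal and slow muscle, myosin and troponin genes among them, stood at 559 CPM or more in each of the 8 libraries. Reloaded replicate 2 stood apart: over all genes its pairwise chi-square per degree of freedom with the other reloaded libraries was 78.6 to 93.6, against 17.6 to 18.9 among those 3. Albumin RNA (Alb) exceeded 20 CPM in unloaded replicate 2 and in reloaded replicates 1 and 2. The results were recomputed without reloaded replicate 2, which gave 3709 genes higher and 3549 lower in place of the counts below, and without every library above that albumin level, here called albumin-rich, which gave 3210 and 3080. Where either step, or leaving out any other library of the 8, ended the call of a gene given with values or moved a list count of 4 or more by over 1.5 times, this stands beside the result. In bulk RNA, fewer cells of a type and less RNA per cell cannot be told apart, nor can more cells and more RNA per cell.

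Reloading changed close to as many genes as it left uncalled. Of the 15031 genes tested, 3974 (26.4%) were called higher and 3230 (21.5%) lower in the reloaded libraries, 47.9% in all, at an adjusted p below 0.05 in edgeR's quasi-likelihood test with Benjamini-Hochberg adjustment. The median log2 fold change of all genes was 0.06. List counts given below are to be read beside the shares of 26.4% higher and 21.5% lower. A list with counts near these shares did not stand apart from all tested genes. Changes of at least 2-fold were more often rises, 894 genes (5.95%), than falls, 436 genes (2.9%). All 4 reloaded libraries lay above all 4 unloaded libraries for 3169 genes (21.1%) and below them for 2877 (19.1%). Throughout, values of the 4 libraries of a group are listed in the order of replicates 1 to 4, a log2 fold change is reloaded over unloaded with its standard error, and a gene is said to rise or fall only where it was called.

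**Figure D1:**
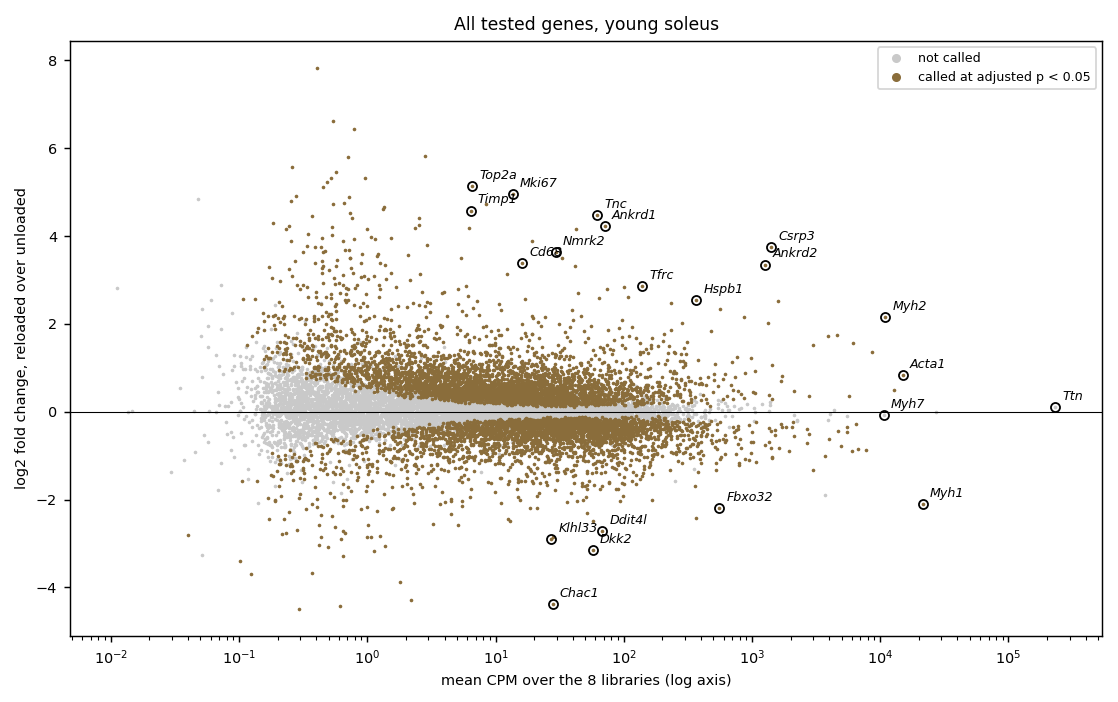
Log2 fold change of reloaded over unloaded libraries (vertical axis) against the mean CPM of the 8 libraries (horizontal axis, log scale) for the 15031 tested genes, one point per gene, with called genes in brown and some named. Genes past 2-fold are more numerous above the line (894) than below it (436), and Mki67, Tnc, Ankrd1 and Csrp3 lie among the farthest above, with Chac1 the farthest below among the named genes.

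Genes of the Z-disc and of the response to stretch rose together. Of 27 tested genes of this list, 18 rose and 3 fell, with a median log2 fold change of 0.76, and 13 rose at least 2-fold. Ankrd1 (chr19:36111965-36119845), a titin-binding ankyrin repeat protein, stood at 8.73, 7.49, 5.53 and 7.01 CPM in the unloaded and at 242, 29.5, 173 and 93.1 CPM in the reloaded libraries. Its reloaded mean was 18.7 times the unloaded mean (log2 fold change 4.22 ± 0.59, adjusted p = 4.45e-07). Replicate 2 was the lowest reloaded library and still lay above every unloaded one, and without it the log2 fold change was 4.54. Csrp3 (chr7:48830398-48848052), the muscle LIM protein of the Z-disc, was at 149, 271, 191 and 176 CPM before and at 3446, 1679, 2609 and 2825 CPM after reloading. The groups were far apart, with a ratio of means of 13.4 (log2 fold change 3.75 ± 0.37, adjusted p = 4.59e-10). Ankrd2, a stretch-responsive relative of Ankrd1, moved from 150.2, 238, 233 and 278 CPM to 2598, 2056, 2002 and 2547 CPM, and its 4 reloaded values lay close together (log2 fold change 3.35 ± 0.28, adjusted p = 1.46e-11).

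The LIM domain protein Lmcd1 was at 185, 261, 227 and 167 CPM in the unloaded and 921, 611, 652 and 833 CPM in the reloaded libraries (log2 fold change 1.84 ± 0.18, adjusted p = 2.4e-10). Fhl1, a LIM domain protein of the sarcomere, and Synpo2l, an actin-bundling Z-disc protein, rose by 1.74 and 1.49 on the log2 scale. Xirp1, a Xin repeat protein found at sites of fibre damage and remodelling, measured 199, 531, 313 and 218 CPM unloaded and 1542, 1498, 1190 and 1426 CPM reloaded. Unloaded replicate 2 was the highest of its group, yet all 4 reloaded libraries were above it (log2 fold change 2.16 ± 0.32, adjusted p = 1.38e-06). Its paralogue Xirp2 went from 3809, 5170, 5034 and 5264 to 16822, 8567, 11320 and 12712 CPM (log2 fold change 1.36 ± 0.15, adjusted p = 5.44e-09). The list was not uniform: Cmya5, or myospryn, fell from 7536, 7562, 8034 and 8274 CPM to 4005, 4412, 3895 and 4662 CPM (log2 fold change -0.89 ± 0.08, adjusted p = 7.23e-11), and Ankrd23, another titin-binding ankyrin repeat protein, fell by a log2 fold change of -0.68 ± 0.15 (adjusted p = 0.000278).

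In controls, Ankrd1 was between 11.5 and 20.5 CPM, with a median of 16 CPM, and Csrp3 between 207 and 432 CPM, with a median of 316 CPM, so the reloaded libraries of both genes were above every control. Against the same unloaded and reloaded libraries, 13 of the 27 genes were lower and 3 higher in unloaded than in control muscle (background 21.7% lower and 19.1% higher, 40.8% in all), and 16 were higher and 3 lower in reloaded than in control muscle (background 26.8% higher and 22.9% lower, 49.6% in all). These contrasts share libraries with each other and with the reloading contrast, so their values stand side by side only.

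**Figure D2:**
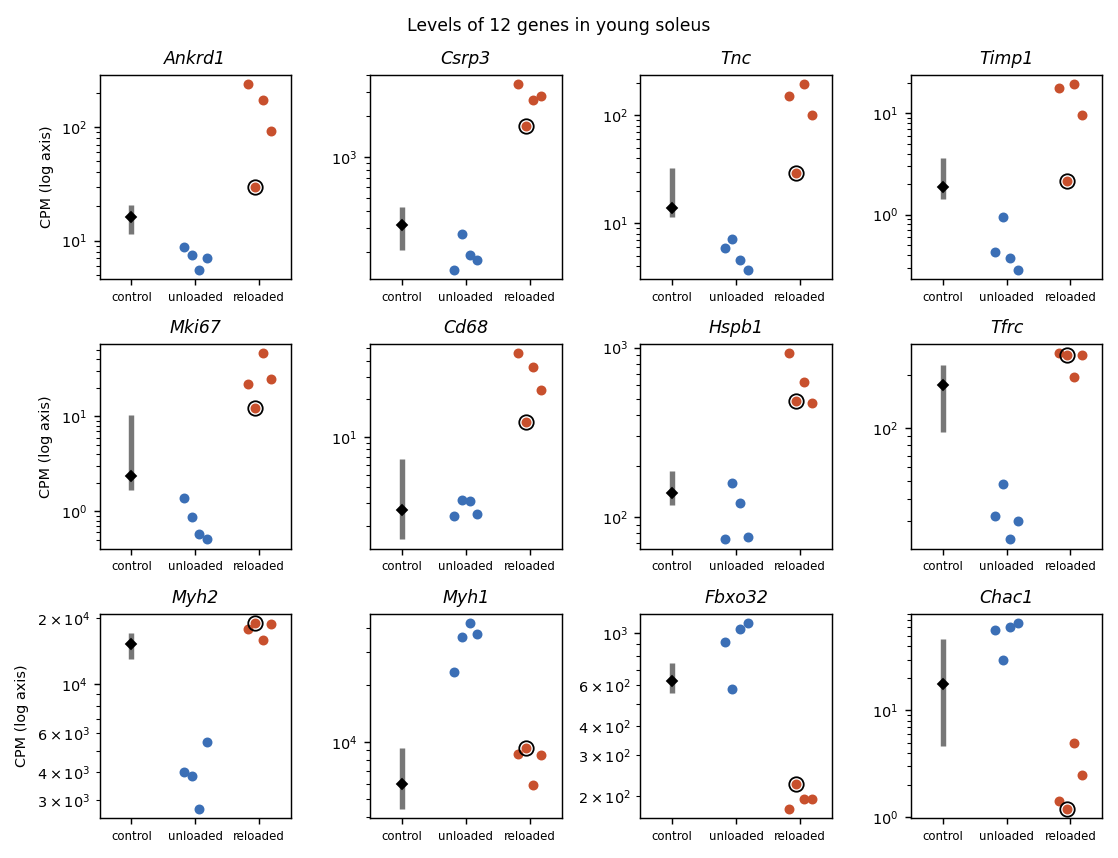
CPM on a log axis for single genes in young control (9), unloaded (4) and reloaded (4) libraries, with 1 point per unloaded or reloaded library, a grey line and a diamond for the range and median of the controls, and reloaded replicate 2 circled. For Ankrd1, Csrp3, Tnc, Mki67 and Cd68 every reloaded library lies above every unloaded one, and for Fbxo32 and Chac1 every reloaded library lies below.

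Among adult myosin heavy chains, the fast oxidative isoform rose and a faster isoform fell, while the slow isoform showed no call. Myh2, the 2A heavy chain, stood at 4028, 3858, 2735 and 5461 CPM in the unloaded and 17792, 18962, 15801 and 18750 CPM in the reloaded libraries. The groups did not overlap (log2 fold change 2.15 ± 0.27, adjusted p = 8.59e-08), and the control mean was 15052 ± 1107 CPM (SD, n = 9). Myh1, the 2X heavy chain, was at 23453, 35771, 42620 and 37204 CPM unloaded and 8588, 9212, 5914 and 8484 CPM reloaded, lower in every reloaded library (log2 fold change -2.11 ± 0.45, adjusted p = 0.000247), with controls at 6396 ± 1537 CPM (SD, n = 9). Myh4, the 2B heavy chain, was also lower in all 4 reloaded libraries, at 997, 883, 2189 and 2195 against 3443, 7443, 5507 and 7003 CPM, but did not pass the test (log2 fold change -1.90 ± 1.14, adjusted p = 0.17). Slow Myh7 was at 11690, 9077, 10974 and 12080 CPM unloaded and 11229, 9280, 9402 and 11656 CPM reloaded, with overlapping groups (adjusted p = 0.729). These genes are near-identical over long stretches, and reads of 50 bases could be split between them, so their separate levels are uncertain.

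Developmental and accessory sarcomere genes included some of the largest rises. Of 12 tested genes on that list, 3 rose and 2 fell, beside 26.4% and 21.5% of all tested genes, and the list median was -0.12. The summed level of the list was lower after reloading, 8831 to 10228 CPM against 10619 to 14290 CPM unloaded. The 3 rises were those of Myl6b, Mybph and Myh3. Myl6b, an alkali light chain of myosin, was at 5.69, 5.08, 2.55 and 4.76 CPM before and 77.1, 134, 54.6 and 57.7 CPM after reloading, here with replicate 2 the highest reloaded library (log2 fold change 4.16 ± 0.45, adjusted p = 2.78e-09). Mybph, myosin binding protein H, went from 0.934, 2.66, 5.02 and 1.11 to 73.6, 14, 32.9 and 22.7 CPM (log2 fold change 3.88 ± 0.71, adjusted p = 3.07e-05), and the control mean was 1.27 ± 0.756 CPM (SD, n = 9). Myh3, the embryonic heavy chain that marks new or regrowing fibres, was at 17.8, 12.8, 24 and 43.9 CPM in unloaded and 223, 102, 140.1 and 233 CPM in reloaded muscle, a ratio of means of 7.09 (log2 fold change 2.83 ± 0.57, adjusted p = 0.000119). Outside that list, Myom1, which links myosin filaments in the M band, fell from 3919, 4143, 4312 and 4749 to 1625, 1773, 1565 and 1877 CPM, with little spread in either group (log2 fold change -1.32 ± 0.08, adjusted p = 3.37e-15). Mylk2, the skeletal muscle kinase of the regulatory light chain and also outside that list, was at 502, 489.8, 734 and 761 CPM unloaded and 103, 162, 92.2 and 109.6 CPM reloaded (log2 fold change -2.41 ± 0.22, adjusted p = 1.19e-10). Troponin I of slow fibres, Tnni1, rose by 0.88 on the log2 scale, and Myoz1, a calsarcin of fast fibres, had a log2 fold change of -1.08.

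Calcium handling genes of the sarcoplasmic reticulum fell more often than they rose, with 10 lower and 5 higher of 18. Atp2a2, the calcium pump of slow fibres, was at 6990, 5227, 6261 and 6752 CPM unloaded and 3342, 3959, 3292 and 4055 CPM reloaded (log2 fold change -0.78 ± 0.15, adjusted p = 5.69e-05). Mrln, a micropeptide that inhibits this pump, went from 12.6, 8.36, 10.3 and 9.23 to 2.48, 3.18, 2.74 and 2.07 CPM (log2 fold change -1.95 ± 0.27, adjusted p = 4.04e-07). Casq2, the calsequestrin of slow and cardiac muscle that stores calcium, moved the opposite way, from 120.1, 119, 82.1 and 126 to 568, 421, 385 and 454 CPM, with a ratio of means of 4.09 (log2 fold change 2.03 ± 0.16, adjusted p = 3.02e-12).

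At the neuromuscular junction, 6 of 18 tested genes rose and 2 fell, beside 26.4% and 21.5% of all tested genes. Chrnb1, the beta subunit of the muscle acetylcholine receptor, stood at 15.7, 18, 19.2 and 16.3 CPM unloaded and 41.9, 40.9, 39.3 and 42.7 CPM reloaded, both groups tightly grouped (log2 fold change 1.25 ± 0.21, adjusted p = 9.25e-06). Dok7, the activator of the receptor kinase MuSK, rose by 0.75 on the log2 scale. Without reloaded replicate 2, 4 genes of the list were lower, and 1 was lower without any 1 of the other reloaded libraries and unloaded replicates 2 and 4.

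Among myogenic factors and satellite cell genes 5 of 19 rose and 3 fell, beside 26.4% and 21.5% of all tested genes. The counts rested on single libraries, with 2 higher without the albumin-rich libraries, 2 without reloaded replicate 1 or 3 or unloaded replicate 3, 3 without unloaded replicate 1 or 4, and 5 lower without reloaded replicate 2 or unloaded replicate 1. Myog, the transcription factor of myoblast differentiation, measured 3.74, 4, 3.18 and 2.79 CPM in unloaded and 17.5, 4.54, 20.3 and 11.1 CPM in reloaded libraries, with replicate 2 just above the unloaded range (log2 fold change 1.96 ± 0.63, adjusted p = 0.01). Myod1, which commits cells to the muscle lineage, was at 4.8, 4.48, 2.84 and 3.27 CPM unloaded and 8.41, 6.92, 8.89 and 5.59 CPM reloaded (log2 fold change 0.95 ± 0.34, adjusted p = 0.022), and was no longer called without the albumin-rich libraries (adjusted p = 0.074) or without any 1 of reloaded replicates 1 and 3 and unloaded replicates 3 and 4. Vcam1, an adhesion molecule of activated satellite cells and endothelium, rose by 0.88 on the log2 scale. Pax7, the marker of satellite cells themselves, was at 2.88, 2.69, 2.24 and 2.06 CPM unloaded and 1.96, 4.35, 2.6 and 2.76 CPM reloaded in overlapping groups and was not called (log2 fold change 0.24 ± 0.23, adjusted p = 0.423). Cdh15, the cadherin of satellite cells and myoblasts, fell by a log2 fold change of -0.45 ± 0.12.

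Genes of the cell cycle rose. Mitosis genes rose in 36 of 39 cases with none called lower, a median log2 fold change of 3.01, and 34 rose at least 2-fold. The summed level of that list was 49.1 to 51.1 CPM in the unloaded and 107 to 262 CPM in the reloaded libraries. Of 37 genes of DNA replication, 20 rose and 1 fell (median 0.41). Their summed level was 169.7 to 176 CPM unloaded and 235, 174, 277 and 222 CPM reloaded, with replicate 2 inside the unloaded range. Of 19 tested replication-dependent histone genes, out of 22 listed, 15 rose (median 2.11). The summed level of the histone list was 116 to 128 CPM unloaded and 138 to 183 CPM reloaded, against 100.3 to 137 CPM in the controls. E2F factors switch on replication genes as cells enter S phase, and mitosis genes are switched on later through CCAAT boxes and the cell cycle homology region (CHR), so promoters of both lists are shown here.

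The promoters of Mki67, the proliferation antigen Ki-67, and of Mcm6, a subunit of the replicative helicase, are printed from 250 bases before to 50 after the start, 5′ to 3′ on the gene's strand, from RefSeq on GRCm38.p6. The Mki67 promoter lies at chr7:135716330-135716629 on the minus strand, and its capitals mark CCAAT (or ATTGG on the other strand) and the CHR letters TTTGAA. The Mcm6 promoter lies at chr1:128359656-128359955 on the minus strand, and its capitals mark E2F letters, searched as TTTCCCGC, TTTCGCGC, TTTGCCGC and TTTGGCGC.
Mki67: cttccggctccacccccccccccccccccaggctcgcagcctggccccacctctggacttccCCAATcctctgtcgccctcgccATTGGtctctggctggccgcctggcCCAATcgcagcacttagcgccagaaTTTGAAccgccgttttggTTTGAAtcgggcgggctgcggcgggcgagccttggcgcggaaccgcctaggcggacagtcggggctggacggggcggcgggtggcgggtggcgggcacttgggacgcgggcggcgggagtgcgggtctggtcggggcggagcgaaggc
Mcm6: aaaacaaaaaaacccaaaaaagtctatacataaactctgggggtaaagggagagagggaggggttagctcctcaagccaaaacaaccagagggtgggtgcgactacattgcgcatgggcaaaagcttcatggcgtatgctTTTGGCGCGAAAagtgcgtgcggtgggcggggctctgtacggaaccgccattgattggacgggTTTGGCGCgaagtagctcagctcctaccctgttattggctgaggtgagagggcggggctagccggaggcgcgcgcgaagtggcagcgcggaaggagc
Both strands were searched for every motif. Mki67 held 3 CCAAT matches and 2 CHR matches, and Mcm6 held 3 E2F matches, the first pair of which overlap on opposite strands. Among mitosis genes with a promoter in the table, 27 of 32 (84.4%) held CCAAT and 25 of 32 (78.1%) held TTTGAA, while over all 11403 tested genes with a promoter the shares were 38.1% and 12.1%. E2F letters were found in 12 of 31 replication genes (38.7%) and in 3.88% of all promoters.

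Mki67 itself was at 1.39, 0.866, 0.573 and 0.508 CPM in the unloaded and at 22, 12.4, 46.3 and 24.8 CPM in the reloaded libraries. Every reloaded library was above every unloaded one, with a ratio of means of 31.7 (log2 fold change 4.96 ± 0.59, adjusted p = 2.06e-08), and the 9 controls were between 1.68 and 10.4 CPM, with a median of 2.34 CPM. Kif20a, a kinesin of the dividing cell's midzone, was at 0.16, 0.299, 0.229 and 0.286 CPM unloaded and 2.28, 1.54, 4.17 and 1.97 CPM reloaded, and Kif4 and Kif23, other spindle kinesins, rose by 3.94 and 3.16 on the log2 scale, the latter by 3.76 without the albumin-rich libraries. Aurkb, the kinase of the chromosomal passenger complex, was close to absent before reloading, at 0, 0.0299, 0.0573 and 0 CPM, and was at 1.38, 1.05, 2.14 and 1.03 CPM after it (adjusted p = 3.35e-09). No fold is given for it, since its 4 unloaded libraries held 3 reads in all.

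Mcm6 was at 5.85, 6.57, 7.08 and 6.5 CPM unloaded and 29.2, 17.7, 29.1 and 27.9 CPM reloaded (log2 fold change 2.00 ± 0.16, adjusted p = 4.55e-12), and its control mean was 7.35 ± 0.805 CPM (SD, n = 9). Mcm5 and Mcm2, helicase subunits too, rose by 1.94 and 1.00 on the log2 scale. Uhrf1, which keeps DNA methylation through replication, went from 0.4, 0.358, 0.344 and 0.476 to 5.27, 2.93, 8.86 and 4.8 CPM (log2 fold change 3.79 ± 0.48, adjusted p = 7.78e-08). Pole, the catalytic subunit of polymerase epsilon, was the exception among replication genes, falling from 15.6, 16.5, 20.3 and 20.5 to 6.97, 7.07, 9.16 and 7.38 CPM (log2 fold change -1.25 ± 0.14, adjusted p = 4.82e-09). Linker histone Hist1h1b was at 0.214, 0.478, 0.086 and 0.222 CPM unloaded and 3.86, 2.84, 8.38 and 4.19 CPM reloaded (log2 fold change 4.26 ± 0.60, adjusted p = 4.35e-07), with a log2 fold change of 5.14 without the albumin-rich libraries. Core histone Hist1h3b was at 0.0267, 0, 0.0287 and 0 CPM unloaded and 1.84, 0.772, 2.52 and 1.09 CPM reloaded (adjusted p = 8e-08), again with too few unloaded reads, 2 in all, for a fold. Hist1h3b and Aurkb passed the filter on low counts only through libraries outside the young unloaded group. Against that group they could therefore be called only higher, and both are counted in the rises of their lists. Histone gene copies are near-identical, and counts of each single copy are uncertain.

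Of the p53 targets, 4 of 22 rose and 4 fell, beside 26.4% and 21.5% of all tested genes. Zmat3, an RNA-binding p53 target, rose from 9.8, 11.2, 10.1 and 10.3 to 25.3, 43.6, 20.9 and 23 CPM, with replicate 2 the highest (log2 fold change 1.45 ± 0.14, adjusted p = 6.65e-10), and Trp53inp1, a target tied to autophagy, fell by a log2 fold change of -1.34 ± 0.24.

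Genes of the extracellular matrix rose. Collagens rose in 19 and fell in 5 of 35 tested genes (median 0.81), and their summed level was 1223 to 1354 CPM unloaded and 3102 to 4702 CPM reloaded, against 2263 to 3612 CPM in the controls. Col1a1 (chr11:94936224-94953043), the main chain of fibrillar type I collagen, was at 79.6, 73.4, 59.1 and 71.8 CPM unloaded and 414, 350.4, 509.8 and 306 CPM reloaded (log2 fold change 2.48 ± 0.35, adjusted p = 6.34e-07), with a control mean of 297 ± 83.5 CPM (SD, n = 9). The reloaded mean was 5.56 times the unloaded mean. Basement membrane collagens Col4a1 and Col4a2, a divergent gene pair, rose by 1.32 and 1.09 on the log2 scale. Col15a1, which sits at the edge of the basement membrane, was at 25.3, 29.4, 21.7 and 22.7 CPM unloaded and 63.2, 93.6, 97.7 and 65.8 CPM reloaded (log2 fold change 1.69 ± 0.17, adjusted p = 1.4e-09), and Col6a3, a microfibril chain around fibres, rose by 1.44. Col24a1, a minor fibrillar collagen, fell by a log2 fold change of -0.73 ± 0.21. Without the albumin-rich libraries 18 collagens were higher and 1 lower, and leaving out any 1 library other than reloaded replicates 2 and 4 left 2 or 3 lower.

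Enzymes and chaperones that process collagen rose in 19 of 23 cases and fell in 2. Serpinh1, the collagen chaperone HSP47, was at 39.3, 45.9, 31.7 and 31.7 CPM unloaded and 114, 71.1, 129 and 91.8 CPM reloaded (log2 fold change 1.45 ± 0.20, adjusted p = 2.98e-07). Plod3, a lysyl hydroxylase, and Pcolce, an enhancer of procollagen cleavage, rose by 0.95 and 1.28 on the log2 scale.

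Of 43 matricellular and wound matrix genes, 19 rose and 4 fell, with 0 lower without the albumin-rich libraries, 2 without reloaded replicate 1 or 2 and 1 without unloaded replicate 1. Tnc (chr4:63959785-64047016), or tenascin C, which is laid down at muscle-tendon junctions and in wounds, measured 5.9, 7.2, 4.61 and 3.71 CPM in the unloaded and 151, 29.2, 196 and 100 CPM in the reloaded libraries. Its ratio of means was 22.2 (log2 fold change 4.47 ± 0.55, adjusted p = 4.05e-08), replicate 2 was the lowest of its group, and the log2 fold change without it was 4.78. Vcan, or versican, a proteoglycan of provisional matrix, was at 19.2, 15.9, 13.5 and 13.1 CPM unloaded and 85.9, 29.9, 80.5 and 64.3 CPM reloaded, with the same library lowest (log2 fold change 2.08 ± 0.30, adjusted p = 9.52e-07). Biglycan (Bgn) went from 44.4, 42.3, 31.4 and 37.6 to 139, 135, 165 and 142 CPM with all reloaded libraries alike (log2 fold change 1.90 ± 0.20, adjusted p = 1.31e-09), and Sparc, a collagen-binding glycoprotein, rose by 1.50 on the log2 scale. Decorin (Dcn), the proteoglycan of resting fibroblasts, stood at 478, 480.5, 431 and 373 CPM unloaded and 252, 306, 297 and 337 CPM reloaded (log2 fold change -0.56 ± 0.15, adjusted p = 0.00239), but was not called without the albumin-rich libraries (adjusted p = 0.0705).

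Among 32 matrix proteases and inhibitors, 14 rose and 4 fell, with 9 higher without unloaded replicate 1. Timp1, an inhibitor of metalloproteases, was at 0.427, 0.955, 0.373 and 0.286 CPM unloaded and 17.6, 2.13, 19.5 and 9.69 CPM reloaded (log2 fold change 4.58 ± 0.59, adjusted p = 9.71e-08). Replicate 2 held by far the least of the reloaded libraries, and the log2 fold change was 4.91 without it and 5.29 without the albumin-rich libraries. Adam12, a metalloprotease of mesenchymal and regenerating cells, rose by 2.71 on the log2 scale, and by 2.99 without replicate 2. Integrins, laminins and the dystrophin complex split into 20 higher and 8 lower of 38. Itga5, the fibronectin receptor chain, rose from 10.8, 14.7, 11.8 and 11.3 to 34.6, 37.3, 32.6 and 29.9 CPM (log2 fold change 1.47 ± 0.18, adjusted p = 5.58e-08), whereas alpha-sarcoglycan (Sgca) fell by a log2 fold change of -0.69 ± 0.08.

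Macrophage genes rose and those of neutrophils and mast cells did not. On the list for recruited and phagocytic macrophages 20 of 33 rose and 1 fell (median 0.99), with summed levels of 318 to 378 CPM unloaded and 439 to 838 CPM reloaded, and 12 rose without reloaded replicate 3. For resident macrophages 11 of 16 rose and 2 fell, with summed levels of 256 to 359 and 320.3 to 501 CPM, ranges that overlapped, and 7 rose without reloaded replicate 3. In the mean of log2(CPM + 1) over the tested genes, reloaded replicate 2 lay inside the unloaded range for both lists. It was at 2.06 for recruited macrophages (unloaded 1.89 to 2.14) and at 3.28 for resident ones (unloaded 2.99 to 3.61). Cd68 (chr11:69664213-69666171), a lysosomal glycoprotein of phagocytes, was at 2.4, 3.19, 3.15 and 2.47 CPM in the unloaded and 45.7, 13.2, 35.6 and 23.5 CPM in the reloaded libraries. All 4 reloaded libraries were higher, replicate 2 least so, with a ratio of means of 10.5 (log2 fold change 3.39 ± 0.35, adjusted p = 1.23e-09), and controls were between 1.56 and 6.71 CPM, with a median of 2.66 CPM. Adgre1, the F4/80 antigen, went from 4.62, 4.69, 4.1 and 3.58 to 10.4, 6.39, 15.9 and 10.4 CPM (log2 fold change 1.34 ± 0.25, adjusted p = 3.72e-05), and Itgax, the CD11c integrin, rose by 1.95 on the log2 scale.

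Stab1, a scavenger receptor of resident macrophages, was at 37.4, 38.5, 27.1 and 27.9 CPM unloaded and 72.2, 62.6, 89.4 and 63.7 CPM reloaded (log2 fold change 1.14 ± 0.16, adjusted p = 3.53e-07). Mrc1, the mannose receptor, was at 29, 34, 25.7 and 22.4 CPM unloaded and 69.1, 25, 74.5 and 57.1 CPM reloaded (log2 fold change 1.02 ± 0.24, adjusted p = 0.000787), and here reloaded replicate 2 lay inside the unloaded range while the others lay above it. Maf, a transcription factor of resident macrophages that other cells also express, fell from 31.5, 42, 33 and 30.2 to 13.8, 14.8, 17.3 and 15.9 CPM (log2 fold change -1.15 ± 0.13, adjusted p = 1e-08). Gpnmb, a glycoprotein of lipid-laden macrophages, fell by a log2 fold change of -1.28 ± 0.26. These macrophage lists rose beside the matrix and cell cycle lists, and their part in those results was not tested.

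Neutrophil and mast cell markers fell in 3 of 12 tested genes, out of 17 listed, and rose in none. The shares of all tested genes were 21.5% lower and 26.4% higher. Of these markers, 0 were lower without unloaded replicate 3 and 1 without reloaded replicate 3 or the albumin-rich libraries. Their summed levels were 23 to 27.8 CPM unloaded and 18.2 to 21.1 CPM reloaded. The neutrophil granule gene Camp was at 0 in all 8 libraries. S100a8, a calcium-binding protein of neutrophils, was at 0.534, 0.537, 1.69 and 1.68 CPM unloaded and 0.173, 0.124, 0.136 and 0.152 CPM reloaded (log2 fold change -2.89 ± 1.07, adjusted p = 0.0251), and was no longer called without the albumin-rich libraries (adjusted p = 0.099) or without any 1 of reloaded replicate 3 and unloaded replicates 3 and 4. None of 6 tested lymphocyte markers was called either way, and their summed levels, 2.6 to 3.36 and 2.43 to 3.08 CPM, overlapped. Antigen presentation genes rose in 9 of 17 cases. Ciita, the master regulator of MHC class II genes, was at 1.95, 1.25, 1.81 and 1.3 CPM unloaded and 5.76, 2.53, 7.62 and 4.31 CPM reloaded (log2 fold change 1.68 ± 0.31, adjusted p = 3.26e-05; adjusted p = 0.104 when only the highest transcript was counted), and the class II chain H2-Ab1 rose by 1.09 on the log2 scale. Interferon-stimulated genes stayed nearly uncalled, with 1 of 26 higher.

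Chemokines, cytokines and their receptors rose in 18 and fell in 5 of 39 tested genes (2 lower without the albumin-rich libraries). Tnfrsf12a (chr17:23675445-23677450), the receptor for the cytokine TWEAK, was at 7.05, 12.7, 7.16 and 3.39 CPM before and 99.5, 47, 73 and 83.3 CPM after reloading, with no overlap and a ratio of means of 10.0 (log2 fold change 3.32 ± 0.42, adjusted p = 5.75e-08). Cx3cl1, the ligand of the receptor on monocytes and macrophages, went from 3.9, 3.46, 2.84 and 3.14 to 11.9, 11, 13.5 and 14.1 CPM (log2 fold change 1.92 ± 0.27, adjusted p = 4.14e-07). Il6ra, the alpha chain of the interleukin 6 receptor, fell from 11.5, 6.93, 13.6 and 13 to 5.04, 5.16, 6.04 and 4.95 CPM (log2 fold change -1.09 ± 0.19, adjusted p = 1.28e-05). Among complement genes 10 of 23 rose and 3 fell, and C1qb, a chain of the initiating C1q complex made by macrophages, was at 7.98, 9.14, 7.39 and 6.22 CPM unloaded and 19.5, 9.39, 20.6 and 15.6 CPM reloaded (log2 fold change 1.08 ± 0.24, adjusted p = 0.000423). The mean of log2(CPM + 1) in reloaded replicate 2 lay inside the unloaded range for both lists. It was 1.95 for the chemokine and cytokine list (unloaded 1.78 to 2.05) and 3.33 for complement (unloaded 3.17 to 3.52).

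Endothelial genes rose in 14 of 25 cases and fell in 1, with summed levels of 955 to 1023 CPM unloaded and 1153 to 1496 CPM reloaded. Plvap, the diaphragm protein of fenestrated and sprouting vessels, was at 5.47, 6.36, 5.59 and 5.77 CPM unloaded and 11.7, 16.4, 21.2 and 13.9 CPM reloaded (log2 fold change 1.45 ± 0.16, adjusted p = 9.45e-09). Aplnr, the apelin receptor of venous and sprouting endothelium, was at 9.34, 12.7, 5.76 and 5.52 CPM unloaded and 23.7, 29.2, 57.2 and 28.3 CPM reloaded (log2 fold change 2.05 ± 0.43, adjusted p = 0.000194). Pericyte and smooth muscle genes rose in 6 and fell in 3 of 13, with 5 lower without reloaded replicate 2 or without the albumin-rich libraries. Cspg4, the NG2 proteoglycan of pericytes and activated myogenic cells, went from 33, 33, 30.6 and 28.1 to 77.5, 102, 76.9 and 75.5 CPM (log2 fold change 1.41 ± 0.14, adjusted p = 5.04e-10).

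The fibroblast list was split, with 5 higher and 5 lower of 16 (1 lower without the albumin-rich libraries), and its summed level was lower after reloading, 1253 to 1457 against 1793 to 1997 CPM. Gsn, or gelsolin, the severing protein of actin, accounted for most of that sum in the unloaded libraries and fell from 1084, 1006, 1050 and 1038 to 531, 667, 517 and 629.7 CPM (log2 fold change -0.83 ± 0.12, adjusted p = 1.35e-06). Cd248, or endosialin, rose by 0.98 and Lum, or lumican, by 0.94 on the log2 scale. Tendon genes rose in 4 of 12 cases with none lower, beside 26.4% higher and 21.5% lower of all tested genes. Scx, the transcription factor of tendon cells, was at 3.12, 2.6, 3.01 and 2.16 CPM unloaded and 10.0, 8.74, 10.9 and 7.26 CPM reloaded (log2 fold change 1.76 ± 0.36, adjusted p = 0.000131), with summed tendon levels of 391 to 565 and 625 to 786 CPM. The part of tendon in the collagen result was not tested.

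Adipocyte genes fell in 4 of 14 and rose in none, beside 21.5% lower and 26.4% higher of all tested genes. Of these genes, 1 or 2 were lower without any 1 of reloaded replicates 1, 3 and 4 and unloaded replicates 1 and 2. Their summed levels, 2740 to 3820 and 2073 to 3067 CPM, overlapped. Erythroid genes fell in 2 of 12, in 9 without reloaded replicate 1, and in 1 without any 1 of the other reloaded libraries and unloaded replicates 1 and 4, with summed levels of 281 to 374 and 169 to 273 CPM. Of 16 Schwann cell genes 4 rose and 1 fell, with 2 higher without the albumin-rich libraries, reloaded replicate 1 or unloaded replicate 4. None of 22 liver genes and none of 7 tested epithelial genes was called, and the skin keratin Krt5 was at 0 in all 8 libraries. Summed liver levels were 78.3, 188, 81.1 and 72.5 CPM unloaded and 251, 116, 81.5 and 58.6 CPM reloaded, highest in the albumin-rich libraries. In reloaded against control muscle 5 of the 22 liver genes were higher (median 2.29), beside 26.8% of all tested genes.

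Chaperones rose in the cytosol and in the endoplasmic reticulum. Of 33 cytosolic chaperones 23 rose and 1 fell (median 0.65), where in unloaded against control muscle 18 were lower and 1 higher. Heat shock factor 1 binds repeated GAA units, and the promoter of Hspb1, the small heat shock protein HSP27, is shown as an example. It lies at chr5:135887669-135887968 on the plus strand of GRCm38.p6, from RefSeq, and its capitals mark heat shock element letters, searched on both strands as TTCNNGAA and GAANNTTC, where each is its own reverse complement.
Hspb1: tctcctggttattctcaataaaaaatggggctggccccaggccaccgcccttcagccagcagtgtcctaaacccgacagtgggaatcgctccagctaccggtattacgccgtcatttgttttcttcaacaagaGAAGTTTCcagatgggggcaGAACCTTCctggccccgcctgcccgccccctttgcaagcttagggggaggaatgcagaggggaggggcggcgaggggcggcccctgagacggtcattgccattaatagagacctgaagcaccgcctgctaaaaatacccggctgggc
This window held 2 matches, and one or more stood in the promoters of 11 of 26 cytosolic chaperone genes (42.3%), against 12% of all promoters.

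Hspb1 was at 74, 158, 121 and 76 CPM unloaded and 924, 487, 628 and 469 CPM reloaded, without overlap and with a ratio of means of 5.84 (log2 fold change 2.55 ± 0.28, adjusted p = 3.7e-09). Cryab, alpha-B crystallin, which binds desmin and titin under strain, was at 389, 531, 439 and 539.8 CPM unloaded and 3051, 2145, 2645 and 3113 CPM reloaded (log2 fold change 2.53 ± 0.24, adjusted p = 2.85e-10). Hspb7, a small heat shock protein that binds filamin C, went from 373, 568, 595 and 586 to 2024, 2809, 1714 and 2058 CPM, with replicate 2 the highest (log2 fold change 2.02 ± 0.17, adjusted p = 3.19e-11). Stip1, which passes clients from HSP70 to HSP90, was even within each group, at 53.7, 55.1, 52.7 and 53.4 CPM unloaded and 137, 100.4, 121 and 122 CPM reloaded (log2 fold change 1.16 ± 0.13, adjusted p = 4e-09). In the endoplasmic reticulum 15 of 23 chaperones rose and 2 fell, and the counts were the same without reloaded replicate 2. Their summed level was 1270 to 1319 CPM unloaded and 1712, 1261, 1766 and 1625 CPM reloaded. Reloaded replicate 2 thus lay below every unloaded library in this sum. Pdia3, a disulfide isomerase, rose by 0.91 on the log2 scale, and Herpud1, a factor of protein disposal from that compartment, fell from 92.5, 88, 101 and 97.3 to 45.7, 51.7, 56.2 and 54.8 CPM (log2 fold change -0.86 ± 0.09, adjusted p = 6.35e-10).

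Routes of protein breakdown differed in direction. Ubiquitin ligases of atrophy fell in 11 and rose in 2 of 19 cases (median -0.35), autophagy genes fell more often than they rose, most proteasome genes were not called, and lysosomal genes rose more often than they fell. FoxO factors, which insulin-like growth factor signalling keeps out of the nucleus, drive the ligase genes Trim63 and Fbxo32 in wasting muscle. The promoter of Trim63, at chr4:134314870-134315169 on the plus strand of GRCm38.p6 (RefSeq), is shown with the FoxO letters GTAAACA, or TGTTTAC on the other strand, in capitals.
Trim63: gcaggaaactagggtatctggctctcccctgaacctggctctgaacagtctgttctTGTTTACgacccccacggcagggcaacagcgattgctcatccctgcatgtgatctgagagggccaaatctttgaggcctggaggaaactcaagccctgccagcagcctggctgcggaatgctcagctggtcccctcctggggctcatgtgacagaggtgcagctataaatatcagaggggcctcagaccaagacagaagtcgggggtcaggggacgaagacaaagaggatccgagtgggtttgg
It held 1 match, on the minus strand. This motif stood in 2 of 14 ligase promoters (14.3%) and in 2.59% of all promoters, and in 24 of 320 promoters (7.5%) of genes that fell at least 2-fold against 9 of 658 (1.37%) of those that rose as much. These shares describe the letters and say nothing of binding.

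Trim63, or MuRF1, the ligase of thick filament proteins, was at 196, 126, 232 and 235 CPM in the unloaded and 63.5, 68.2, 69.4 and 72.3 CPM in the reloaded libraries, lower in every reloaded library (log2 fold change -1.53 ± 0.27, adjusted p = 2.08e-05). The unloaded mean was 2.88 times the reloaded mean, and the control mean of 234 ± 61.3 CPM (SD, n = 9) lay near the unloaded level. Fbxo32 (chr15:58175879-58214893), or atrogin-1, fell from 914, 579, 1044 and 1109 to 177, 225, 194 and 195 CPM (log2 fold change -2.20 ± 0.18, adjusted p = 1.7e-11), with controls at 626 ± 55.8 CPM (SD, n = 9). Klhl33, a kelch protein of the kind that recruits substrates to ligases, went from 50.4, 41.2, 54.7 and 46.3 to 4.84, 9.26, 6.26 and 5.53 CPM (log2 fold change -2.90 ± 0.29, adjusted p = 5.79e-10). Fbxo31 and Asb2, substrate receptors of cullin ligases, fell by log2 fold changes of -1.65 ± 0.17 and -1.32 ± 0.15. Fbxo40, which targets the insulin receptor substrate IRS1, rose instead, from 162, 176, 184 and 177 to 356, 313, 281 and 339 CPM (log2 fold change 0.88 ± 0.12, adjusted p = 3.1e-07).

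FoxO and glucocorticoid responsive genes fell in 11 of 26 cases and rose in none. Klf15, a glucocorticoid-induced regulator of amino acid breakdown, was at 53.2, 47.6, 72.5 and 69.9 CPM unloaded and 22.3, 25.4, 20.2 and 22.4 CPM reloaded (log2 fold change -1.43 ± 0.19, adjusted p = 2.24e-07). Fkbp5, which glucocorticoids induce in most tissues, was at 57.7, 46, 85.1 and 98.3 CPM unloaded and 22.2, 28.9, 23.6 and 18.9 CPM reloaded (log2 fold change -1.62 ± 0.27, adjusted p = 7.1e-06), and at 29.5 ± 6.61 CPM in controls (SD, n = 9). Arrdc2, an alpha-arrestin of the same list, fell from 13.6, 14.3, 30.8 and 29.3 to 3.43, 4.05, 4.09 and 4.25 CPM, with unloaded replicates 1 and 2 lower than 3 and 4 (log2 fold change -2.48 ± 0.51, adjusted p = 0.000142). Gadd45b, a stress-induced growth arrest gene, fell by a log2 fold change of -1.63 ± 0.31.

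Autophagy genes fell in 15 and rose in 3 of 21 cases (median -0.31), with 1 higher without reloaded replicate 2 and 0 without the albumin-rich libraries. Map1lc3b, the autophagosome protein LC3B, was at 133, 136, 156 and 156 CPM unloaded and 54.7, 60.5, 61.1 and 65 CPM reloaded, with each group tight (log2 fold change -1.27 ± 0.11, adjusted p = 1.49e-11). Pink1, the kinase that marks damaged mitochondria, fell from 1296, 1183, 1343 and 1379 to 593, 657, 568 and 622 CPM (log2 fold change -1.09 ± 0.09, adjusted p = 1.43e-11), and Sqstm1, the cargo receptor p62, fell by a log2 fold change of -0.99 ± 0.11. Proteasome genes fell in 12 and rose in 4 of 37, beside 21.5% and 26.4% of all tested genes, and 21 were not called (median -0.06). The activator Psme4, or PA200, went from 438, 437, 498 and 477 to 224, 214, 224 and 248 CPM (log2 fold change -1.02 ± 0.08, adjusted p = 1.3e-12), and the lid subunit Psmd11 rose by 1.06. Lysosomal genes went the other way in number, 14 higher and 7 lower of 35 (median 0.21). Within them Ctsl, the protease cathepsin L, fell from 176, 126, 196 and 181 to 65, 56.7, 73.8 and 65.9 CPM (log2 fold change -1.38 ± 0.16, adjusted p = 1.56e-08), while Gusb, beta-glucuronidase, rose from 9.34, 9.34, 7.71 and 9.1 to 26.7, 20.3, 33.1 and 29.8 CPM (log2 fold change 1.63 ± 0.15, adjusted p = 1.49e-10).

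The integrated stress response, in which ATF4 drives amino acid and redox genes, was split. Of 28 tested genes 10 rose and 4 fell, and 5 or 6 rose without the albumin-rich libraries or any 1 of reloaded replicates 2, 3 and 4 and unloaded replicates 1 and 4. The gene with the largest fall of all by the naming rule was its member Chac1, an enzyme that degrades glutathione and is a known ATF4 target. Its promoter, at chr2:119350992-119351291 on the plus strand of GRCm38.p6 (RefSeq), is shown with amino acid response element letters, TGATGNAAN on either strand, in capitals.
Chac1: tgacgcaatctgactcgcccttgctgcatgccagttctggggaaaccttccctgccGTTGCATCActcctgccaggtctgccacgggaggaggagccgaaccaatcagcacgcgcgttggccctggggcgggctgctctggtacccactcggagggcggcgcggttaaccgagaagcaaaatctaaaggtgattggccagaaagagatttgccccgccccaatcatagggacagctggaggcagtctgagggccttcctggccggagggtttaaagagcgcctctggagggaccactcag
It held 1 match, on the minus strand, and 9 of 25 promoters of the list (36%) held one, against 2.21% of all promoters.

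Chac1 was at 56.8, 29.6, 60.7 and 66.2 CPM in the unloaded and 1.41, 1.2, 5.01 and 2.49 CPM in the reloaded libraries. The unloaded mean was 21.1 times the reloaded mean (log2 fold change -4.38 ± 0.66, adjusted p = 1.4e-06), and controls were between 4.6 and 46.8 CPM, with a median of 17.6 CPM. Other members of the list rose. Mthfd2, a mitochondrial folate enzyme, was at 1.36, 1.64, 1.52 and 1.4 CPM unloaded and 4.55, 2.56, 5.5 and 4.19 CPM reloaded (log2 fold change 1.51 ± 0.23, adjusted p = 2.26e-06). Psat1, an enzyme of serine synthesis, was at 4.75, 3.97, 3.64 and 3.2 CPM unloaded and 13.3, 5.74, 12.6 and 7.57 CPM reloaded (log2 fold change 1.33 ± 0.31, adjusted p = 0.000514). Atf4 RNA was at 106, 121, 113 and 109 CPM unloaded and 119, 88.9, 108 and 114 CPM reloaded in overlapping groups and was not called (adjusted p = 0.705). Vldlr, a lipoprotein receptor that ATF4 also induces, fell from 420.1, 377, 366 and 375 to 198, 209, 186 and 209 CPM (log2 fold change -0.94 ± 0.08, adjusted p = 7.09e-12). Cytosolic aminoacyl-tRNA synthetases fell in 8 and rose in 3 of 20, with Qars, which charges glutamine, at a log2 fold change of -0.58 ± 0.06 and Rars, which charges arginine, at 0.53 ± 0.08.

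In the translation machinery, 21 of 42 initiation and elongation factors fell and 7 rose (median -0.19). Eif4b, which aids the helicase that unwinds mRNA, was at 439, 323, 399.7 and 404 CPM unloaded and 170.2, 172, 177 and 181 CPM reloaded (log2 fold change -1.16 ± 0.07, adjusted p = 4.64e-14). Cytosolic ribosomal protein genes rose in 27 and fell in 2 of 79, beside 26.4% and 21.5% of all tested genes, and 40 rose without reloaded replicate 2. Their summed level was 11828 to 12551 CPM unloaded and 14805, 11415, 14045 and 14201 CPM reloaded, with replicate 2 below every unloaded library. Processed copies of these genes elsewhere in the genome make single counts uncertain. Rplp0, a stalk protein, was at 545, 550.3, 535 and 538 CPM unloaded and 898, 726, 806 and 850.2 CPM reloaded (log2 fold change 0.60 ± 0.06, adjusted p = 5.11e-10). Rpl3, which muscle partly replaces by a paralogue in mature fibres, was at 81.5, 94.3, 90.3 and 88.3 CPM unloaded and 270.4, 156, 242 and 221 CPM reloaded (log2 fold change 1.33 ± 0.23, adjusted p = 1.04e-05). Of 48 ribosome biogenesis genes 11 rose and 10 fell, again beside 26.4% and 21.5% of all tested genes, with 7 higher without the albumin-rich libraries and 6 without reloaded replicate 1.

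Polyamine genes rose in 4 and fell in 5 of 13 (3 lower without the albumin-rich libraries). Odc1, ornithine decarboxylase, which makes the first polyamine, was at 57.3, 58.6, 62.3 and 58 CPM unloaded and 246, 122, 212 and 180.3 CPM reloaded, replicate 2 lowest of the reloaded (log2 fold change 1.69 ± 0.19, adjusted p = 7.33e-09). Azin1, which frees that enzyme from its antizyme, rose by 1.36 on the log2 scale, and Paox, an oxidase that breaks polyamines down, fell by a log2 fold change of -1.06 ± 0.16. Myc, a driver of Odc1 in growing cells, was at 3.63, 4.9, 2.78 and 4.35 CPM unloaded and 5.62, 5, 6.34 and 4.74 CPM reloaded in overlapping groups and was not called (adjusted p = 0.38).

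Genes of the respiratory chain were lower than in controls both before and after reloading, and more of them fell than rose in between. In complex I 17 of 37 genes fell and 4 rose on reloading. Side by side, 34 of them were lower in unloaded than in control muscle, and 37 in reloaded than in control muscle (medians -0.56 and -0.76). For complexes II to V the counts were 14 lower and 2 higher of 40 on reloading, with 39 and 40 lower than control before and after. Cox8b, a subunit of cytochrome oxidase, was at 206, 218, 193 and 201 CPM unloaded and 97.8, 94.6, 99.3 and 113 CPM reloaded (log2 fold change -1.02 ± 0.11, adjusted p = 1.44e-09), with controls at 302 ± 16.1 CPM (SD, n = 9). Ndufa6, of complex I, fell by a log2 fold change of -0.49 ± 0.07, and cytochrome c (Cycs) rose by 0.65. Without the albumin-rich libraries 10 of 37 genes of complex I and 7 of 40 of complexes II to V were called lower. The share of all tested genes called lower in the main fit was 21.5%. In complex I, 2 genes were higher without any 1 of reloaded replicates 2 and 4 and unloaded replicate 1.

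Beta-oxidation genes fell in 14 and rose in 1 of 22, and all 22 were lower in reloaded than in control muscle. Echs1, the enoyl-CoA hydratase, was at 102, 108, 100 and 107 CPM unloaded and 48.2, 58.1, 50.3 and 54.3 CPM reloaded (log2 fold change -0.98 ± 0.11, adjusted p = 1.33e-08). In the citric acid cycle 10 of 22 fell and 4 rose, with 6 lower without reloaded replicate 1, and 2 higher without the albumin-rich libraries or any 1 of reloaded replicates 2 and 4 and unloaded replicates 1 and 3. Idh2, the NADP-linked isocitrate dehydrogenase, went from 678, 703, 632 and 745 to 327, 439, 329 and 431 CPM (log2 fold change -0.85 ± 0.18, adjusted p = 0.000245) beside a control mean of 1219 ± 88.6 CPM (SD, n = 9). Of 76 mitochondrial ribosome genes 24 rose and 5 fell, beside 26.4% and 21.5% of all tested genes. Their median log2 fold change was 0.10, against 0.06 over all tested genes. Mrpl19, a large-subunit protein, was at 14, 13, 11.6 and 11.9 CPM unloaded and 24.4, 22.4, 22 and 20.9 CPM reloaded (log2 fold change 0.83 ± 0.11, adjusted p = 1.25e-07). Ppargc1a, the coactivator of mitochondrial genes PGC-1 alpha, was at 50.2, 43.9, 46.9 and 64.8 CPM unloaded and 41.6, 62.4, 37.5 and 45.6 CPM reloaded in overlapping groups (adjusted p = 0.835), below the control mean of 171 ± 93.4 CPM (SD, n = 9). Its relative Ppargc1b rose from 16.1, 17, 12.6 and 14.3 to 24.9, 48.4, 24.7 and 26.8 CPM, most in replicate 2 (log2 fold change 1.06 ± 0.20, adjusted p = 4.23e-05).

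**Figure D3:**
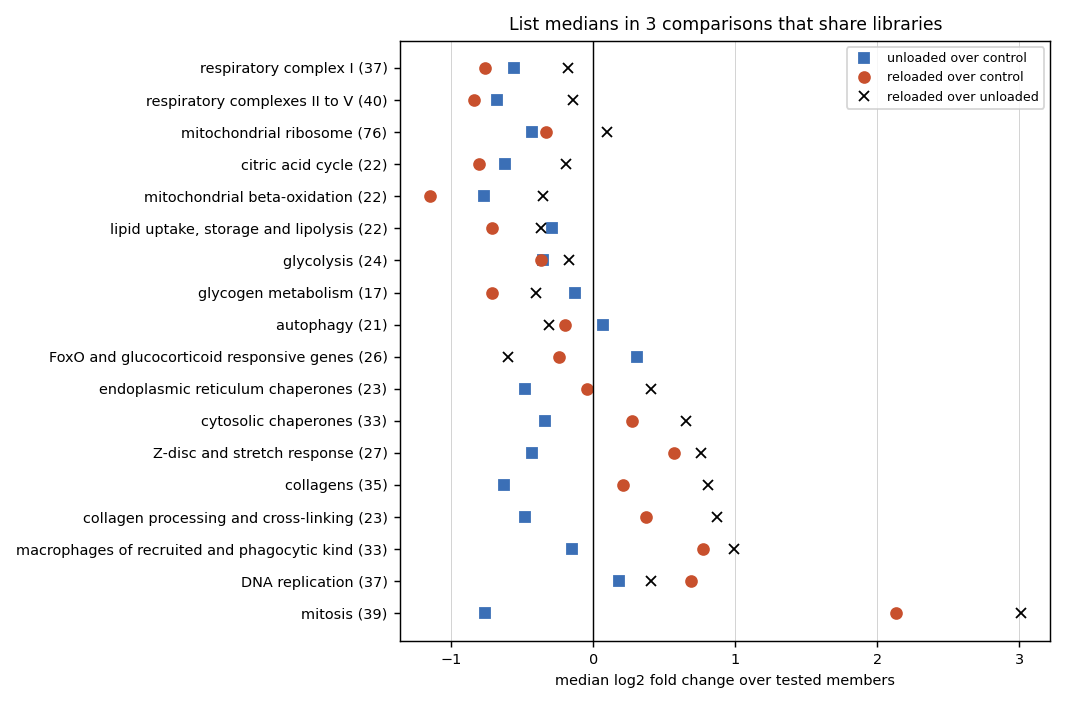
Median log2 fold change of each listed group (one point per list) for unloaded against control, reloaded against control and reloaded against unloaded young muscle, contrasts that share libraries. Respiratory complexes, citric acid cycle and beta-oxidation lie below 0 in all 3 contrasts, and mitosis lies above 0 in both contrasts with reloaded muscle (3.01 and 2.13).

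Lipid genes fell more often than they rose. For uptake, storage and lipolysis the counts were 10 lower and 4 higher of 22. Lpl, the lipase that frees fatty acids from circulating lipoproteins, was at 1389, 1478, 1437 and 1587 CPM unloaded and 557, 821, 563 and 728 CPM reloaded (log2 fold change -1.14 ± 0.15, adjusted p = 1.14e-07), with controls at 2516 ± 304 CPM (SD, n = 9). Slc27a1, a fatty acid transport protein, was at 109.7, 113, 102 and 106 CPM unloaded and 34.7, 84.7, 38.8 and 42.7 CPM reloaded, with replicate 2 the highest reloaded library and still below every unloaded one (log2 fold change -1.10 ± 0.21, adjusted p = 4.92e-05). Lipogenesis and sterol genes were near even in number, 7 higher and 8 lower of 25, beside 26.4% and 21.5% of all tested genes. At least 2-fold, 4 fell and 0 rose, beside 2.9% and 5.95% of all tested genes. Their summed level was lower after reloading, 989 to 1525 CPM against 1606 to 2074 CPM unloaded. Fdft1, squalene synthase, fell from 83.9, 92.3, 90.5 and 86.8 to 26.1, 32.6, 23.2 and 29.2 CPM (log2 fold change -1.67 ± 0.14, adjusted p = 2.27e-11).

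Glycogen genes fell in 11 and rose in 2 of 17 cases (median -0.40). Phkg1, the catalytic subunit of muscle phosphorylase kinase, was at 135, 157, 163 and 151 CPM unloaded and 26.7, 47.1, 36 and 38.2 CPM reloaded (log2 fold change -2.03 ± 0.17, adjusted p = 2.71e-11). Ppp1r3a, which anchors phosphatase 1 to glycogen, fell by a log2 fold change of -1.33 ± 0.10. In glycolysis 8 of 24 fell and 4 rose, with Pfkm, the muscle phosphofructokinase, from 1626, 1790, 1611 and 1632 to 839, 1273, 969 and 1036 CPM (log2 fold change -0.69 ± 0.10, adjusted p = 4.8e-07).

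Genes of creatine, ketone and NAD metabolism were split, 5 higher and 4 lower of 14. Nmrk2, a muscle kinase that makes NAD from nicotinamide riboside, was at 3.6, 8.99, 2.21 and 2.73 CPM unloaded and 48.5, 63.3, 49.3 and 56.9 CPM reloaded, with a ratio of means of 12.4 (log2 fold change 3.64 ± 0.53, adjusted p = 9.68e-07), and controls at 29.2 ± 10.6 CPM (SD, n = 9). Bdh1, which oxidises the ketone body beta-hydroxybutyrate, rose from 33.9, 34, 37.9 and 41.8 to 142, 165, 154 and 166 CPM (log2 fold change 2.09 ± 0.27, adjusted p = 1.14e-07) and stayed under its control mean of 255 ± 29.5 CPM (SD, n = 9). The mitochondrial creatine kinase Ckmt2 went from 464, 484, 386 and 415 to 858, 1088, 879.8 and 1031 CPM (log2 fold change 1.14 ± 0.17, adjusted p = 1.14e-06), again under the control mean of 2021 ± 188 CPM (SD, n = 9). The cytosolic creatine kinase Ckm moved the other way, from 8577, 11326, 10182 and 9817 to 5611, 5340, 4889 and 5895 CPM (log2 fold change -0.88 ± 0.12, adjusted p = 4.33e-07). Ampd1, the AMP deaminase of skeletal muscle, fell by a log2 fold change of -1.17 ± 0.14.

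Lists of growth signals had counts near those of all tested genes, of which 26.4% rose and 21.5% fell. On the insulin-like growth factor axis 5 of 21 rose and 6 fell, with 3 higher without reloaded replicate 2 or without the albumin-rich libraries. The ligand Igf1 was at 23.7, 27, 16.5 and 16.6 CPM unloaded and 42.7, 22.3, 47.1 and 38.9 CPM reloaded (log2 fold change 0.85 ± 0.19, adjusted p = 0.000387), and reloaded replicate 2 lay inside the unloaded range. The binding protein Igfbp7 went from 35.9, 45.3, 36.2 and 36 to 106, 89.2, 144 and 98.6 CPM (log2 fold change 1.51 ± 0.13, adjusted p = 5.58e-11). Pik3ip1, an inhibitor of phosphoinositide 3-kinase, fell from 48, 34.8, 51 and 47.3 to 9.53, 16.6, 12.3 and 14 CPM (log2 fold change -1.79 ± 0.28, adjusted p = 2.61e-06). Ddit4l, an inhibitor of mTORC1 also called REDD2, was at 123, 131, 111 and 108 CPM unloaded and 14.2, 25.2, 15.9 and 16.7 CPM reloaded, without overlap and with a ratio of unloaded to reloaded means of 6.58 (log2 fold change -2.72 ± 0.28, adjusted p = 1.3e-09).

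Among myostatin, activin and BMP genes 8 of 36 rose and 6 fell (2 lower without the albumin-rich libraries), beside 26.4% and 21.5% of all tested genes. Mstn, or myostatin, a brake on muscle growth, was at 2.46, 3.76, 1.6 and 2.92 CPM unloaded and 1.87, 1.73, 2.14 and 2.58 CPM reloaded in overlapping groups and was not called (adjusted p = 0.487). Its receptor Acvr2b fell from 64.8, 55.7, 75.8 and 79.6 to 26.9, 41.3, 29.9 and 28.4 CPM (log2 fold change -1.12 ± 0.16, adjusted p = 4.65e-07). The ligand Tgfb1 rose from 3.02, 3.16, 2.61 and 3.11 to 4.84, 10.6, 6.45 and 4.47 CPM, most in replicate 2 (log2 fold change 1.14 ± 0.20, adjusted p = 1.56e-05). Wnt modulators gave 3 rises and 2 falls of 14, beside the same shares of 26.4% and 21.5%. Dkk2, a Wnt antagonist, was at 100, 71, 123 and 119 CPM unloaded and 7.37, 14.6, 16 and 8.66 CPM reloaded (log2 fold change -3.15 ± 0.29, adjusted p = 1.6e-10), and controls were between 29.1 and 48.3 CPM, with a median of 42.2 CPM. Wnt4 fell by a log2 fold change of -1.82 ± 0.38.

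Core clock genes fell in 6 and rose in 2 of 19 cases, in tissue taken at 1 time of day. The shares of all tested genes were 21.5% lower and 26.4% higher. Arntl, or BMAL1, an activator at the core of the clock, was at 26.3, 16.3, 27.7 and 25.7 CPM unloaded and 9.56, 6.52, 4.36 and 4.65 CPM reloaded (log2 fold change -1.93 ± 0.36, adjusted p = 3.83e-05), a log2 fold change of -2.58 without the albumin-rich libraries, with controls at 35.7 ± 11.8 CPM (SD, n = 9). In iron handling Tfrc, the transferrin receptor, rose from 32.1, 48.5, 23.6 and 29.9 to 264, 257, 194 and 259.7 CPM, a ratio of means of 7.27 (log2 fold change 2.86 ± 0.43, adjusted p = 1.68e-06), beside controls at 164 ± 51.2 CPM (SD, n = 9). The iron exporter Slc40a1, or ferroportin, fell from 15.7, 19.1, 16.2 and 15 to 3.57, 7.53, 6.97 and 5.07 CPM (log2 fold change -1.51 ± 0.22, adjusted p = 9.45e-07). The ferritin chain Fth1 fell by a log2 fold change of -0.65 ± 0.11. On the list as a whole 4 of 12 rose and 3 fell, beside 26.4% and 21.5% of all tested genes. Nqo1, a quinone reductase induced by NRF2, fell from 45, 34.5, 54 and 46.2 to 13, 16.2, 16.3 and 16 CPM (log2 fold change -1.55 ± 0.19, adjusted p = 4.98e-08). On its list 5 of 20 fell and 2 rose, beside 21.5% and 26.4% of all tested genes.

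Long noncoding and imprinted RNAs rose in 7 and fell in 5 of 24 (4 higher without the albumin-rich libraries), beside 26.4% and 21.5% of all tested genes. Rian, an imprinted noncoding RNA, was at 4.91, 5.97, 4.79 and 4.41 CPM unloaded and 18.7, 9.85, 17.6 and 13.5 CPM reloaded (log2 fold change 1.57 ± 0.35, adjusted p = 0.000392). H19, the imprinted RNA beside Igf2, was at 330.0, 347, 269.5 and 401 CPM unloaded and 592, 319, 389 and 477 CPM reloaded in overlapping groups and was not called (adjusted p = 0.152).

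Several of the largest changes fell outside the listed groups. Ces5a, a carboxylesterase, was at 0.614, 1.07, 0.258 and 0.476 CPM unloaded and 21.4, 10.1, 12.4 and 20.6 CPM reloaded (log2 fold change 4.73 ± 0.52, adjusted p = 5.49e-09). Ctxn3, a small membrane protein of the cortexin family, fell from 49.4, 45.7, 50.7 and 53.1 to 5.53, 8.58, 6.32 and 7.05 CPM, with both groups tight (log2 fold change -2.86 ± 0.21, adjusted p = 1.68e-12). Gpt2, the mitochondrial alanine aminotransferase, was at 88.1, 77.5, 114 and 114 CPM unloaded and 16, 18.9, 18.6 and 16.6 CPM reloaded (log2 fold change -2.48 ± 0.29, adjusted p = 1.29e-08). Lrrc30, a leucine-rich repeat protein, was at 82.1, 81, 94.5 and 87 CPM unloaded and 16.7, 17.8, 16.9 and 18.7 CPM reloaded (log2 fold change -2.30 ± 0.16, adjusted p = 4.42e-13). Inmt, an indolethylamine methyltransferase, went from 29.8, 28.6, 33.1 and 31.4 to 4.98, 9.14, 4.74 and 7.93 CPM (log2 fold change -2.20 ± 0.38, adjusted p = 1.62e-05), and its control mean was 7.73 ± 3.33 CPM (SD, n = 9). Selenbp1, a methanethiol oxidase, fell by a log2 fold change of -2.19 ± 0.16.

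**Figure D4:**
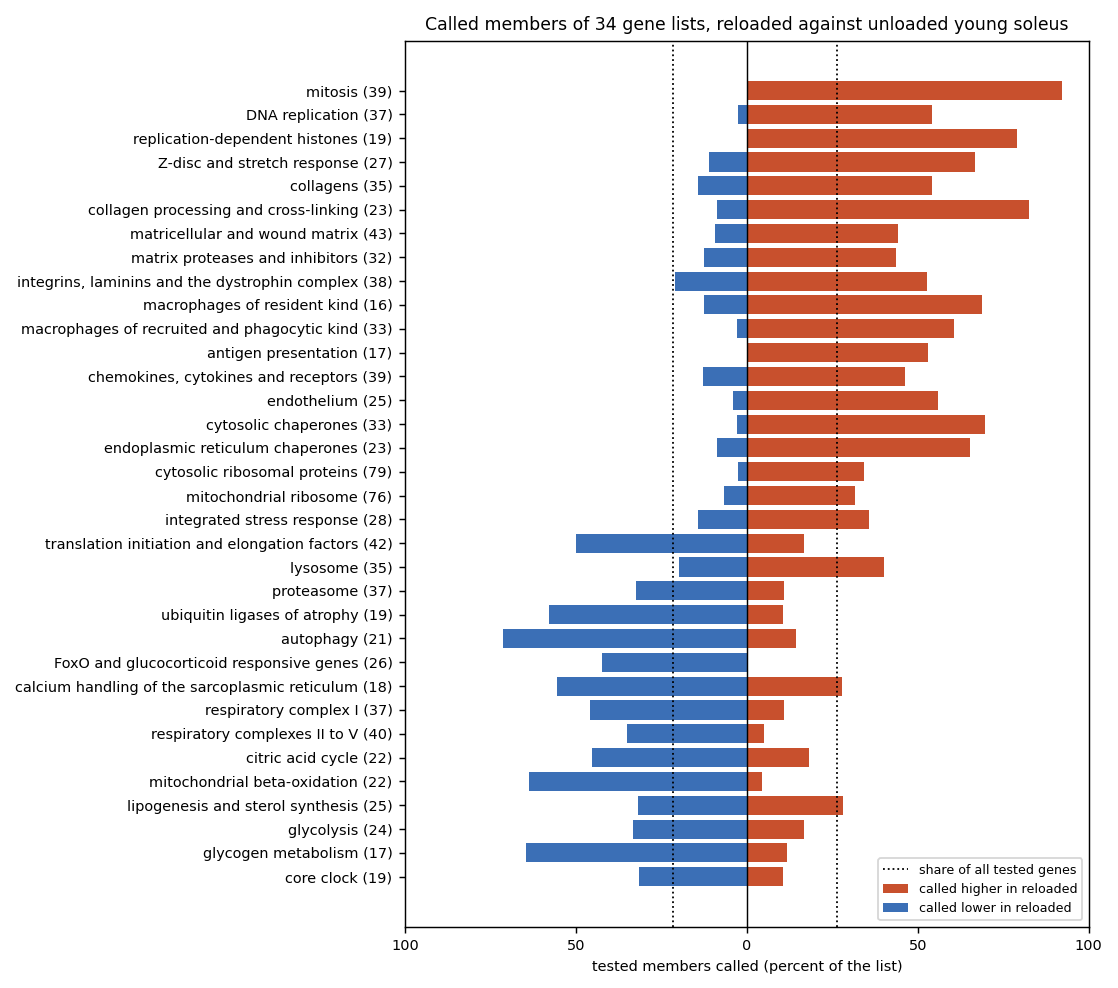
Tested genes of each list called higher (right) and lower (left) in reloaded against unloaded young muscle, as a percentage of the list, with dotted lines at the shares of all tested genes (26.4% and 21.5%). Mitosis (36 of 39 higher), cytosolic chaperones (23 of 33) and collagen processing (19 of 23) lean right, and autophagy (15 of 21 lower), glycogen metabolism (11 of 17) and FoxO and glucocorticoid responsive genes (11 of 26) lean left.

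**Figure D5:**
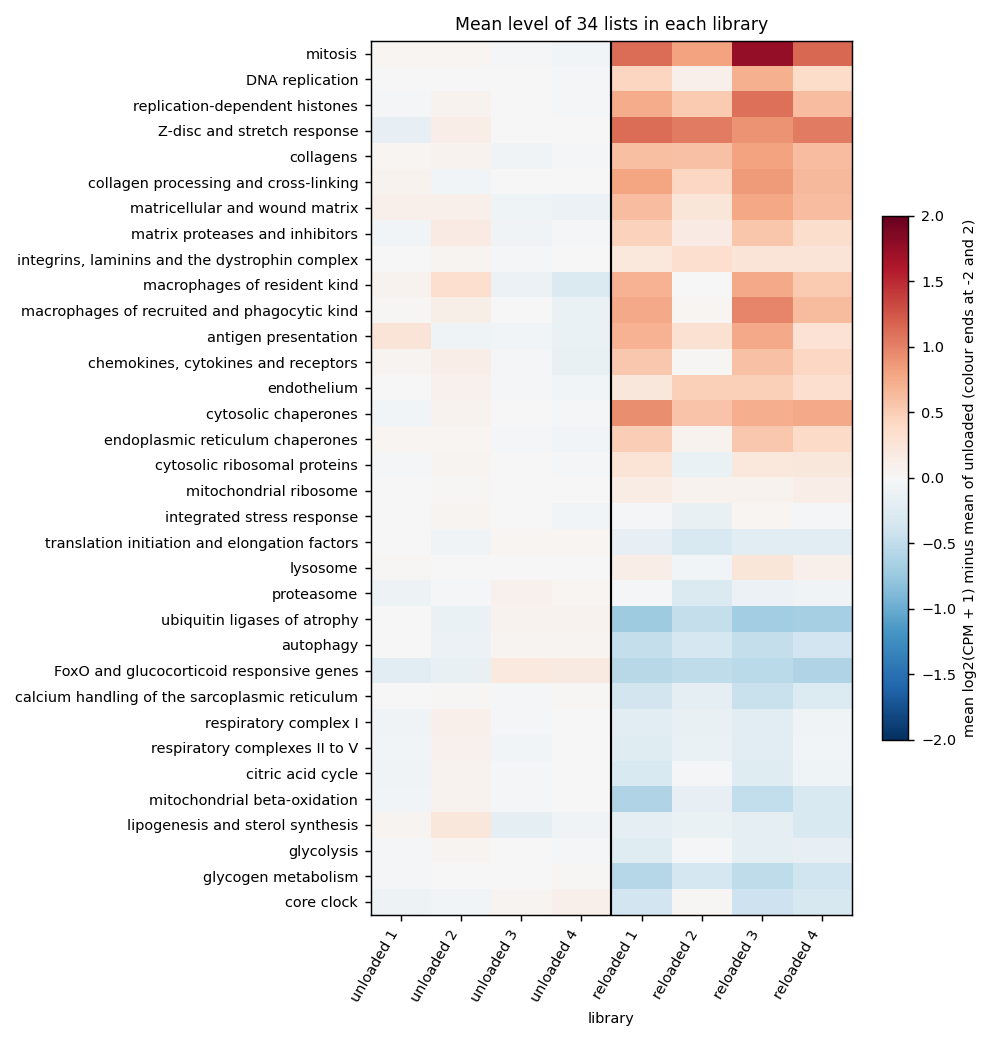
Mean of log2(CPM + 1) over the tested genes of each list in each of the 8 libraries, shown in colour as the difference from the mean of the 4 unloaded libraries, with lists in rows and libraries in columns. Reloaded replicate 2 is paler than the other reloaded libraries for mitosis and recruited macrophages, the summed levels of which span 107 to 262 and 439 to 838 CPM over the 4 reloaded libraries. For recruited macrophages its mean, 2.06 before the subtraction, lies inside the unloaded range of 1.89 to 2.14.

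The response of old mice to the same reloading was called different in few genes. The difference between the ages, old reloaded minus unloaded against young reloaded minus unloaded, was called for 74 genes higher (0.492%) and 43 lower (0.286%) of 15031, 0.778% in all, and 2484 genes had an unadjusted p below 0.05. These counts moved with the processing: 42 higher and 421 lower with library totals as the scaling, which moved the median difference of all genes by -0.12 on the log2 scale, 10 and 7 when only the 4 groups compared were fitted, 38 and 17 without the albumin-rich libraries, and 267 and 133 with DESeq2. Of 1566 tested genes on any list, 16 were called (1.02%). Xirp2 rose further in old mice, where the log2 fold change was 2.42, a difference of 1.06 ± 0.20 from that in young mice (adjusted p = 0.0139), and it is 1 of 3 listed genes still called without the albumin-rich libraries, with Psmd6 and Timp3. None of these 3 was called when only the 4 groups compared were fitted (adjusted p = 0.0789 for Xirp2, 0.17 for Psmd6 and 0.0789 for Timp3), where 1 of the 16, Ampd1, kept its call (adjusted p = 0.0492). Acly, which supplies acetyl-CoA for lipid synthesis, fell in young mice, from 58.8, 73.7, 46 and 49.1 to 41.8, 35.8, 41.2 and 36.1 CPM (log2 fold change -0.55 ± 0.16, adjusted p = 0.00538), and its difference between the ages was 1.23 ± 0.22 (adjusted p = 0.0137). Its log2 fold change in old mice was 0.68. Elovl6, an elongase of fatty acids, had a difference of 2.65 ± 0.49 (adjusted p = 0.0137). The response of Aurkb also differed between the ages (adjusted p = 0.0383), and its old reloaded libraries were at 1.06, 0.322, 1.26 and 0.588 CPM. In old reloading replicate 2, Acly was at 96.8 CPM, Elovl6 at 19.3 CPM and Alb at 1743 CPM, the highest of that group for each. With that library alone left out, the difference between the ages was called for 106 genes higher and 66 lower. The values of Acly and Elovl6 in that fit are not given here. Neither gene was called without the albumin-rich libraries. The young rise of Mki67 was not called different from that in old mice (difference -2.51 ± 0.73, adjusted p = 0.0813), but the call depended on the processing: the difference was called with library totals (-2.64, adjusted p = 0.0459) and with DESeq2 (-2.51, adjusted p = 0.0354), and not without the albumin-rich libraries (adjusted p = 0.235) or with only the groups compared (adjusted p = 0.0946). Over the 39 mitosis genes the median difference was -1.34, with 1 called lower, against a median of -0.01 over all tested genes. Not called either were the differences for the rises of Ankrd1 (-1.29 ± 0.71, adjusted p = 0.371) and Tnc (-0.49 ± 0.67, adjusted p = 0.769) and for the falls of Chac1 (0.23 ± 0.86, adjusted p = 0.928) and Fbxo32 (0.10 ± 0.24, adjusted p = 0.886).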

How the data were processed

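Total RNA of whole soleus was depleted of ribosomal RNA and sequenced as single reads of 50 bases in 1 flow cell, per the labels' protocols, which name both a stranded and an unstranded TruSeq kit. No source used here says whether counting used strand. Tools listed in the submitters' processing notes are TopHat2 2.0.1, Partek 6.6 and DESeq, with mm10 as the mouse build. The authors deposited expected counts (reads assigned to transcripts, in part fractional) and RPKM values per transcript, and the RPKM values were not used.

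From the deposited counts, the 31668 transcript rows were summed per gene symbol into 21156 genes and rounded, 94.94% of gene sums being whole to within 0.01 reads. Before summing, symbols turned into dates were restored in 56 transcript rows. No mitochondrially encoded gene was listed. Genes with low counts were removed with filterByExpr, and 15031 were fitted over all 36 libraries (32.0 to 37.9 M counts) with edgeR 4.0.16 in R 4.3.3, using the trimmed mean of M values, 1 coefficient for each of the 6 groups, so that all groups share 1 estimate of spread, and the quasi-likelihood F test. P-values were adjusted over all tested genes by Benjamini-Hochberg, the standard error is the log2 fold change over the root of F, and p-values measure the spread between mice, 1 per library. The contrasts were young reloading against unloading, both against young control, and the difference of the reloading response between the ages. Simulated counts with known changes were used to test the fit. Alternatives, among them DESeq2 1.42.0, come at the end.

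The rule for named genes took, of called genes averaging at least 8 CPM over the 8 libraries, the 12 that rose most and the 12 that fell most, up to 5 called members of each of 67 lists by adjusted p in the commoner direction and 2 in the other, and 25 tracked genes. The text prints the first of these or those it needs for a role. The members, the lists and the rule were chosen with earlier results of these data known. Some genes that the rule names are not reported here. Promoters came from RefSeq GRCm38.p6, and 11403 of the tested genes had one. Gene coordinates are those of the files on mm10. Near-identical gene copies and overlapping genes may share reads.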

Additional observations from a re-analysis of the deposited data

Results flagged for a closer look

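For the 167 genes given with values, the young control, unloaded and reloaded groups were searched for a library far from the others, 501 groups in all. The value given after each gene is the gap of that library to its nearest neighbour divided by the whole range of the group. Chance marks about 5% of groups, and 53 were marked. Reloaded replicate 2 was far below the other reloaded libraries for Itgax (0.864) and Mcm6 (0.885). It was far above them for Asb2 (0.877), Cspg4 (0.927), Fth1 (0.841), Ppargc1b (0.914), Rxrg (0.978), Slc27a1 (0.842) and Synpo2l (0.832). Reloaded replicate 1 was far below the rest of its group for Ankrd23 (0.939) and Nqo1 (0.892). Reloaded replicate 3 was far above it for Aplnr (0.837). Reloaded replicate 3 was the low library for Tfrc (0.911). Among unloaded libraries, replicate 1 was the low one for Hspb7 (0.88) and Xirp2 (0.842). Unloaded replicate 2 was the high one for Azin1 (0.918), Igfbp7 (0.969), Itgax (0.901) and Pfkm (0.886). Unloaded replicate 3 was the low one for Elovl6 (0.857) and Gusb (0.853). Control replicate 3 was far above the other controls for Adam12 (0.645), Cd68 (0.506), Dok7 (0.495), Gpnmb (0.571), Hist1h1b (0.687), Hspb1 (0.504), Itgax (0.54), Kif20a (0.681), Kif23 (0.697), Mcm5 (0.548), Mki67 (0.593), Plod3 (0.55), Psat1 (0.525), Rpl3 (0.608), S100a8 (0.549), Timp1 (0.678), Tnc (0.65) and Uhrf1 (0.657), several of them genes of the cell cycle or the matrix. Control replicate 6 was the high control for Aplnr (0.604), Ciita (0.499), Col15a1 (0.527), H2-Ab1 (0.609), Igfbp7 (0.574), Myh3 (0.858), Rian (0.878) and Sparc (0.568). Control replicate 8 was the high control for Myh7 (0.537), Synpo2l (0.589), Tnni1 (0.574) and Zmat3 (0.511). Control replicate 1 was the high control for Ctsl (0.549). Control replicate 9 was the high control for Cmya5 (0.523).

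Genes with values in the text whose response to reloading differed between the ages were called in edgeR's test of the interaction. The old log2 fold change minus the young one was 1.23 for Acly (adjusted p = 0.0137), 0.79 for Ampd1 (adjusted p = 0.0365), 2.65 for Elovl6 (adjusted p = 0.0137), 0.50 for Myom1 (adjusted p = 0.0171) and 1.06 for Xirp2 (adjusted p = 0.0139). It was -3.45 for Aurkb (adjusted p = 0.0383) and -4.45 for Hist1h3b (adjusted p = 0.0444), and these fitted values rest on 2 or 3 reads in the young unloaded libraries, so their size is uncertain. Of these, only Xirp2 was still called without the albumin-rich libraries, and only Ampd1 with only the groups compared.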

How the results depend on the processing

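Counts of genes called higher and lower on reloading stayed within 1.5 times of 3974 and 3230 under each alternative run: 3687 and 3438 with DESeq2's size factors in edgeR, 3978 and 3037 with library totals, 3751 and 3160 without a filter, 3115 and 2609 with 5 CPM required in 4 libraries, 3074 and 3241 with only the groups compared, 3242 and 3093 with each gene's highest transcript, 3718 and 3468 with DESeq2's Wald test, and 3210 and 3080 without the albumin-rich libraries, an alternative chosen after seeing the data. Leaving out 1 young unloaded or reloaded library at a time gave 3307 to 3709 higher and 3092 to 3549 lower, and for unloading against control 2388 to 2719 and 2681 to 2912, and for reloaded against control 3309 to 3687 and 3277 to 3593. Control and old unloaded libraries were not left out singly. Same-numbered unloaded and reloaded libraries did not deviate together (correlations -0.36, 0.04, -0.11 and 0.01), and differently numbered ones gave -0.31 to 0.38. These few correlations showed no pairing by number and cannot exclude it. The fit with the number as a replicate block gave 3913 and 3241.

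The difference between the ages was the result that moved: from 74 higher and 43 lower to 42 and 421 with library totals, 10 and 7 with only the groups compared, 38 and 17 without the albumin-rich libraries, and 267 and 133 with DESeq2, with 32 to 155 and 15 to 103 over single young unloaded, young reloaded and old reloaded libraries left out. The cause was not tested.

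Of 398 genes named by the rule, 389 were called, and of 6723 gene and alternative pairs 6507 kept direction and call, 210 lost the call, in 55 genes, and 1 gained it, Myh4 with only the groups compared (-1.94). Directions turned for Alb (-0.28 without reloaded replicate 1, with 2.17 the highest over single libraries left out, and -0.96 without the albumin-rich libraries), Mag (-0.45 with the highest transcript), Mstn (0.01) without the albumin-rich libraries, and Pax7 (-0.03 without reloaded replicate 2, with 0.37 the highest). Of 2278 list counts recomputed, 2063 stayed within 1.5 times. With 4 mice a group, small changes go uncalled: on simulated counts for the reloading contrast, 74 of 100 genes changed 1.5-fold and 99 of 100 changed 2-fold were called. The changed genes were few among the 14920 run and were drawn only from genes with higher counts. Recovery at low counts was therefore not measured. No simulated library was set apart as reloaded replicate 2 was.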

Other observations

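Some listed groups were not described above, and their counts are to be read beside 26.4% higher and 21.5% lower of all tested genes. Of 9 sarcomere genes of slow fibres 2 rose and 2 fell on reloading, and Myl2, a slow regulatory light chain, was at 1434, 1073, 1139 and 1529 CPM unloaded and 2359, 1584, 1749 and 2705 CPM reloaded (log2 fold change 0.70 ± 0.21, adjusted p = 0.0053). Of 11 of fast fibres 2 rose and 4 fell, and Myl1, an essential light chain, went from 1208, 1490, 1163 and 1136 to 2249, 2074, 2126 and 2363 CPM (log2 fold change 0.82 ± 0.14, adjusted p = 1.76e-05). Regulators of mitochondrial content rose in 4 and fell in 5 of 14, with 2 higher without reloaded replicate 2 or the albumin-rich libraries, and Rxrg, a retinoid X receptor, fell from 13.6, 16.3, 10.2 and 10.2 to 6.02, 8.31, 6.07 and 6.05 CPM (log2 fold change -0.93 ± 0.19, adjusted p = 0.000117). Immediate early and YAP target genes rose in 4 and fell in 4 of 26, each 2 without the albumin-rich libraries, with 2 higher without any 1 of reloaded replicates 1 and 3 and unloaded replicates 3 and 4, and 1 lower without unloaded replicate 4.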
